A study of Arabidopsis thaliana with 5 samples.

Results

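The genes described are 10 genes of the general phenylpropanoid pathway of Arabidopsis thaliana, chosen by locus identifier: PAL1 to PAL4, C4H, 4CL1, 4CL2, 4CL3, HCT and C3H1. All 10 were found among the 24200 genes of the deposited table, and all 10 passed the filter on low values that left 20391 genes for testing. RNA was sequenced from protoplasts of leaf epidermal cells of seedlings 9 days post germination, with wild type (WT) represented by 3 libraries and hdl, a HOMEODOMAIN-LIKE mutant whose seed the labels name hdl-1, by 2. Seedlings of both genotypes carried the AtML1pro:RCI2A-mCherry reporter, a red plasma membrane marker driven by a promoter active in the epidermis. About 20000 mCherry-positive cells per sample were collected by fluorescence-activated sorting. All libraries carry batch number 1, and no label names a separate planting or sort for each replicate. The p-values therefore reflect the spread among these 5 libraries alone, which may be technical.

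The general phenylpropanoid pathway turns phenylalanine into the activated acid p-coumaroyl-CoA. PAL (phenylalanine ammonia-lyase) removes ammonia from phenylalanine, C4H (cinnamate 4-hydroxylase, a cytochrome P450) hydroxylates the resulting cinnamate, and 4CL (4-coumarate:CoA ligase) attaches coenzyme A. From p-coumaroyl-CoA the route divides: chalcone synthase leads to flavonoids, which screen ultraviolet light in the epidermis, while HCT (a hydroxycinnamoyl transferase) and C3H1 (a cytochrome P450 that hydroxylates the coumaroyl ester) lead to lignin, which stiffens xylem walls, and to sinapate esters. Among the paralogues, 4CL1 and 4CL2 are associated with lignin and 4CL3 with flavonoids, and PAL1 and PAL2 are the best-studied PAL genes.

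The libraries held 15418154 to 22838239 recovered gene reads. Normalized counts summed to 19046245 to 20079270 in the WT libraries and to 24387425 and 24709399 in the hdl libraries, so a scaling to equal totals shifted the median change of all genes by -0.32 on the log2 scale. WT replicate 2 stood apart from the other WT libraries by Pearson's r of log2 values across genes, which are not independent replicates. This r was 0.973 between WT replicates 1 and 3 but 0.914 and 0.915 between each of them and replicate 2. Between the hdl libraries it was 0.917, while hdl replicate 2 had 0.922 with WT replicate 1. With WT replicates 1 to 3, hdl replicate 1 had r of 0.866, 0.822 and 0.859. All 10 pathway genes had their lowest WT value in replicate 2, against 43.5% of tested genes, so log2 changes are also given without that library. That library was singled out with the values of these genes in view, so passing without it is not independent support. None of the 7 epidermal, 6 mesophyll, 6 xylem and 3 phloem marker genes examined was at 0 in any library. The summed epidermal markers ranged from 21799 to 24493 normalized counts in WT and from 59671 to 66983 in hdl. Taken singly, the 7 had a median log2 change of 0.87 by limma, with 6 positive and the lowest at -0.21. The summed xylem markers were at 47026 and 45003 in WT replicates 1 and 3, at 24296 in WT replicate 2, and at 15293 and 15479 in hdl. Mesophyll markers summed to 586280 to 749533 in WT and to 1067269 and 1108094 in hdl. Phloem markers summed to 25832 to 36819 in WT and to 13105 and 11262 in hdl. By limma 2 of 3 phloem markers fell, beside 4.5% of all tested genes, and 2 of 3 without WT replicate 2, beside 11.4%. Of 6 mesophyll markers 2 rose, beside 8.21% of all tested genes, and 5 without WT replicate 2, beside 17.8%. The part of these cell types in the results was not tested. The mutated gene was not analysed here, so the genotype labels were taken as given.

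The comparison asks which transcripts differ between sorted cells of the genotypes. PAL2 and 4CL3 rose in hdl, the first 2.80-fold and the second 11.9-fold by the ratio of group means. PAL1, C4H, HCT, C3H1 and 4CL1 were higher in both hdl libraries than in any WT library but did not pass the test, PAL3 and 4CL2 overlapped between genotypes, and PAL4 had the lower mean in hdl without passing. A gene passed at a Benjamini-Hochberg adjusted p under 0.05 from limma on log2(normalized count + 1) over all tested genes. Thus 2 of 10 genes rose, where 8.21% of all tested genes did, and 0 fell, where 4.5% did (12.7% in either direction). At an unadjusted p under 0.05 limma gave 6 higher and 0 lower, beside 6533 of 20391 tested genes in either direction. The latter number also stands beside the unadjusted limma counts of the lists below. With edgeR on recovered reads 2 rose and 0 fell, beside 7.97% and 4.08% (4 and 0 at an unadjusted p under 0.05). With DESeq2 3 rose, the third being C4H, and 0 fell, beside 12.8% and 10.6%, together 23.4% (6 and 0 unadjusted). Of all tested genes, 6216 by edgeR and 6923 by DESeq2 had an unadjusted p under 0.05 in either direction. The median log2 change of the 10 genes was 0.63, beside -0.05 for all tested genes. Every hdl library lay above every WT library for 7 of the 10 genes, against 26.7% of tested genes, and below for 0, against 26.9%. In bulk libraries such as these, fewer cells of a type and less RNA per cell cannot be told apart.

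Without WT replicate 2, 5 of the 10 genes rose (PAL1, PAL2, C4H, 4CL3 and HCT) and PAL4 fell, beside a background of 17.8% higher and 11.4% lower (29.2% in either direction) among 20108 genes tested. The median log2 change of the 10 genes was then 0.36, beside -0.05 for all genes tested. Without WT replicate 3, hdl replicate 1 or hdl replicate 2 no gene of the 10 passed, and without WT replicate 1 PAL2 alone did.

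**Figure D1:**
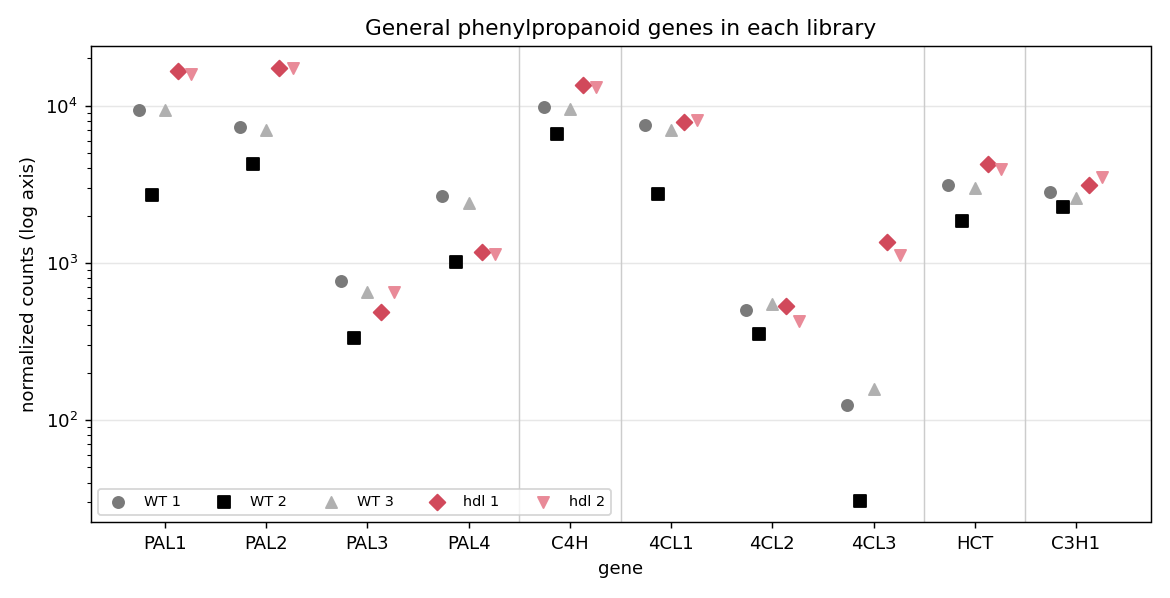
Normalized counts (log axis) of the 10 general phenylpropanoid genes in each library, with 3 WT libraries in grey and black and 2 hdl libraries in red; vertical lines separate the enzyme steps. WT replicate 2 (black squares) is the lowest WT library for every gene, and both hdl libraries lie clearly above all WT libraries for PAL1, PAL2 and 4CL3.

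PAL2 (AT3G53260, TAIR10.1 chromosome 3, 19744018 to 19747114, minus strand) had 7337, 4245 and 7007 normalized counts in the WT libraries, listed here and below in replicate order, and 17256 and 17462 in the hdl libraries. The hdl libraries were nearly equal and lay well above every WT library. Its log2 change was 1.53 ± 0.26 (SE; limma adjusted p = 0.0185), and 1.28 without WT replicate 2 (adjusted p = 0.000284). PAL1 (AT2G37040, chromosome 2, 15557367 to 15560755, minus strand) had 9337, 2695 and 9334 normalized counts in WT and 16608 and 15848 in hdl. Both hdl libraries were above all WT libraries, and WT replicate 2 was far below the others, at 0.289 times their mean. Its log2 change of 1.39 ± 0.55 (SE, 95% interval 0.07 to 2.72) did not pass (adjusted p = 0.142). Without WT replicate 2 the change was 0.80, and it passed (adjusted p = 0.000917).

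PAL4 ran the other way from PAL1 and PAL2. This gene (AT3G10340, chromosome 3, 3203988 to 3208135, plus strand) had 2648, 1011 and 2412 normalized counts in WT and 1166 and 1138 in hdl. The hdl values were below WT replicates 1 and 3 but just above WT replicate 2, so the groups overlapped. The log2 change was -0.69 ± 0.41 (SE, 95% interval -1.69 to 0.31; adjusted p = 0.291), and -1.13 without WT replicate 2, where it passed (adjusted p = 0.0006). The xylem marker sums were likewise high in WT replicates 1 and 3 and lower in WT replicate 2 and hdl; their part in the PAL4 result was not tested. PAL3 (AT5G04230, chromosome 5, 1160569 to 1163957, plus strand), the least abundant PAL gene, had 765, 333 and 655 normalized counts in WT and 484 and 656 in hdl. These ranges overlapped, and the log2 change of 0.03 (95% interval -0.88 to 0.95; adjusted p = 0.958) turned to -0.29 when libraries were scaled to equal totals and to -0.33 without WT replicate 2 (adjusted p = 0.219).

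The PAL genes divided their summed signal differently in the genotypes. Per kb of coding length, PAL4 made up 13.4%, 12.4% and 12.6% of the PAL sum in WT and 3.34% and 3.30% in hdl. WT replicate 2 did not stand apart in this share, although its PAL4 count did. PAL3 held 3.92%, 4.13% and 3.47% in WT and 1.41% and 1.93% in hdl. The PAL3 counts themselves overlapped between the genotypes, so its lower share goes with the larger PAL sum in hdl. PAL1 held 46.1%, 32.2% and 47.7% in WT and 46.5% and 44.8% in hdl, and PAL2 36.6%, 51.3% and 36.2% in WT and 48.8% and 49.9% in hdl, so these shares overlapped. The PAL sum itself averaged 7378 ± 3065 normalized counts per kb (SD) over the 3 WT libraries and 16324 ± 130 over the 2 hdl libraries. For PAL3 and PAL4, and for the PAL sum, the exact two-sided permutation test over libraries gave p = 0.2. This p doubles the smaller one-sided p, so 0.2 is the smallest it can give for 3 against 2 libraries, and no such share could pass (adjusted p = 0.28 over the 7 PAL and 4CL shares, exact permutation).

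**Figure D2:**
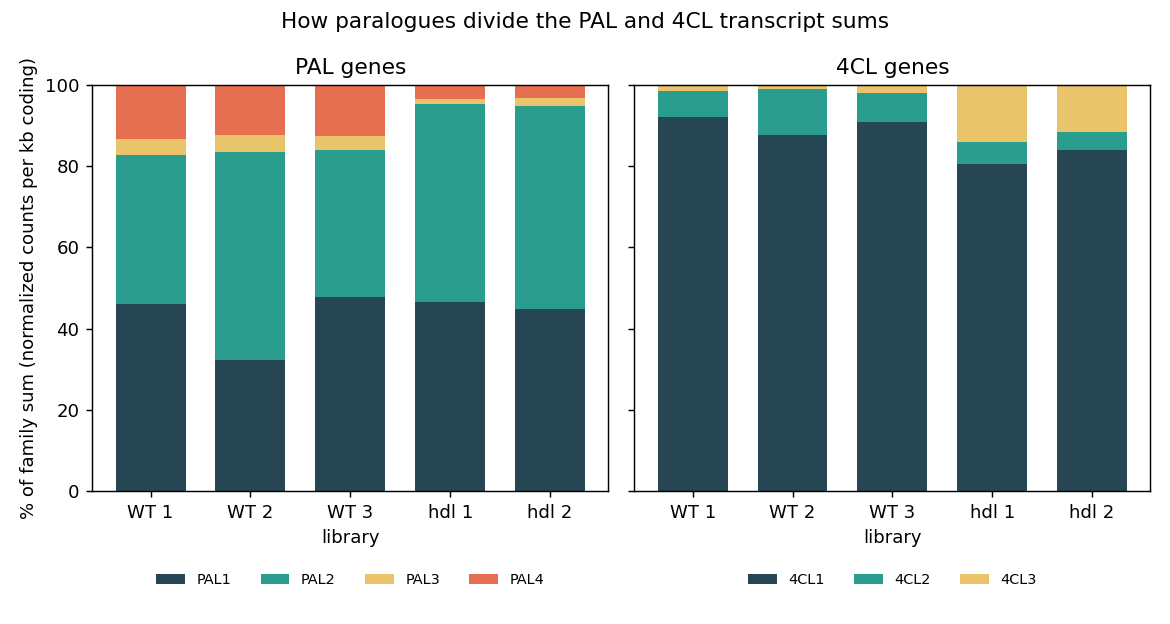
Share of each PAL gene (left) and 4CL gene (right) in the summed signal of its family, in percent of normalized counts per kb of coding length, for each library. PAL4 takes 12.4% to 13.4% of the PAL sum in WT and 3.30% and 3.34% in hdl, and 4CL3 takes 0.98% to 2.04% of the 4CL sum in WT and 11.6% and 14.0% in hdl.

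Ratios within a library do not depend on how libraries are scaled. The PAL4 level per kb was 0.29, 0.38 and 0.26 times that of PAL1 in WT and 0.07 times in both hdl libraries, a log2 difference of -2.09 between the genotypes. Against PAL2 the PAL4 ratio differed by -2.22 on the log2 scale, with no overlap between the groups. The ratio of PAL2 to PAL1, by contrast, overlapped, at 0.79, 1.59 and 0.76 in WT and 1.05 and 1.11 in hdl. Of 11 ratios compared, those without overlap all had exact permutation p = 0.2 (adjusted p = 0.24), the smallest this doubled p can give. The coding sequences of PAL1 and PAL2 are 83.8% identical with a longest identical run of 80 bases, so reads from such stretches could be assigned to either gene. PAL4 is 72.8% and 73.0% identical to PAL1 and PAL2, with runs of at most 32 bases.

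The upstream sequences of PAL2 and PAL4 are shown because these genes differed most within the family. Each is the 250 bases before the annotated gene start in the RefSeq TAIR10.1 genome, written 5′ to 3′ on the gene's strand, with letters matching a searched motif in capitals. The searched motifs, on both strands, were the AC elements AC-I (ACCTACC), AC-II (ACCAACC) and AC-III (ACCTAAC), known as MYB binding sequences in phenylpropanoid promoters, and the G-box CACGTG; none overlapped another in these windows.
PAL2, chr3:19747115-19747364, minus strand: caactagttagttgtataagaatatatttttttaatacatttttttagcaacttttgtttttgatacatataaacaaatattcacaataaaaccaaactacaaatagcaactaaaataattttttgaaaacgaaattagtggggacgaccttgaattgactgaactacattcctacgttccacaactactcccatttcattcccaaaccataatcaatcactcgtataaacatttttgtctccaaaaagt
PAL4, chr3:3203738-3203987, plus strand: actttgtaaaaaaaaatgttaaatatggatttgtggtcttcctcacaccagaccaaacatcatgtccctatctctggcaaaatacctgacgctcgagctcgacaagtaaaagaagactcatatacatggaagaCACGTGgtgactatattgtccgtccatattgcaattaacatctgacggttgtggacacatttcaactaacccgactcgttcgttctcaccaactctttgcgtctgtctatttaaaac
The PAL4 window holds a G-box, as do 7.01% of 23523 upstream windows of protein-coding genes in the table. None of the searched letters is in the PAL1, PAL2, PAL3 or C4H windows. Bases further upstream or inside the annotated genes were not searched, for these or the other genes.

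C4H, a single-copy gene in this species (AT2G30490, chromosome 2, 12993625 to 12996012, minus strand), had 9738, 6623 and 9564 normalized counts in WT and 13538 and 13050 in hdl. Every hdl value exceeded every WT value. Its log2 change of 0.64 ± 0.21 (SE, 95% interval 0.14 to 1.14) did not pass with limma (adjusted p = 0.0914), while it passed with DESeq2 (0.62, adjusted p = 0.035) and without WT replicate 2 (0.46, adjusted p = 0.00594). The PAL2 level per kb was 0.53, 0.45 and 0.52 times that of C4H in WT and 0.90 and 0.94 times in hdl. This ratio did not overlap between the genotypes. ATR2, a cytochrome P450 reductase gene whose product passes electrons to enzymes such as C4H, had 21494, 23187 and 20485 normalized counts in WT and 36516 and 34267 in hdl. It rose by 0.71 on the log2 scale (adjusted p = 0.0384; 0.75 without WT replicate 2), whereas ATR1, the other reductase gene listed, was at -0.19 (adjusted p = 0.616) and overlaps an opposite-strand gene. The ATR2 call was lost when libraries were scaled to equal totals (0.38, limma adjusted p = 0.109) and without the filter on low values (limma adjusted p = 0.0688). It was also lost in limma with no intensity trend, with replicate number as a block, and without WT replicate 1 or WT replicate 3. WT replicate 2 was the highest WT library for ATR2.

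4CL3 had the largest log2 change of the 10 genes. This gene (AT1G65060, chromosome 1, 24167202 to 24171635, minus strand) had 125, 30.7 and 158 normalized counts in WT, resting on 118, 24 and 189 reads, and 1367 and 1127 in hdl, resting on 1013 and 912 reads. Both hdl libraries were far above every WT library, and WT replicate 2 was the lowest of all. Its log2 change was 3.85 ± 0.68 (SE; adjusted p = 0.0203), and 3.13 without WT replicate 2 (adjusted p = 0.000284). Its place among 20023 tested genes with a coding length moved accordingly: 19.4% of genes had a lower mean level per kb in WT, and 76.3% in hdl.

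4CL1 and 4CL2 did not pass. 4CL1 (AT1G51680, chromosome 1, 19158746 to 19161737, minus strand), by far the most abundant 4CL gene, had 7478, 2739 and 7022 normalized counts in WT and 7849 and 8152 in hdl. The hdl values lay just above WT replicates 1 and 3, and the log2 change was 0.61 (95% interval -0.44 to 1.67; adjusted p = 0.369), or 0.14 without WT replicate 2 (adjusted p = 0.208). 4CL2 (AT3G21240, chromosome 3, 7454269 to 7457404, minus strand) had 505, 352 and 544 normalized counts in WT and 534 and 424 in hdl. Its groups overlapped, and its log2 change of 0.05 (95% interval -0.55 to 0.65; adjusted p = 0.902) turned to -0.27 with libraries scaled to equal totals and to -0.14 without WT replicate 2 (adjusted p = 0.535).

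4CL1 held 92.2%, 87.6% and 90.9% of the 4CL sum per kb in WT and 80.5% and 84.0% in hdl. 4CL3 held 1.54%, 0.98% and 2.04% in WT and 14.0% and 11.6% in hdl. In WT the 4CL3 level per kb was below that of 4CL2 in every library, at 0.25, 0.09 and 0.29 times, whereas in hdl it was 2.54 and 2.64 times as high. Against 4CL1 the 4CL3 ratio differed by 3.26 on the log2 scale between the genotypes, without overlap (exact permutation p = 0.2, adjusted p = 0.24). The 4CL sum averaged 3750 ± 1646 normalized counts per kb (SD) over the 3 WT libraries and 5771 ± 20.3 over the 2 hdl libraries. 4CL1 and 4CL2 coding sequences are 81.1% identical, with a longest identical run of 35 bases, while 4CL3 is 66.5% and 66.1% identical to them. 4CL1 shares 24 exonic bases, 0.938% of its exons, with an opposite-strand gene.

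**Figure D3:**
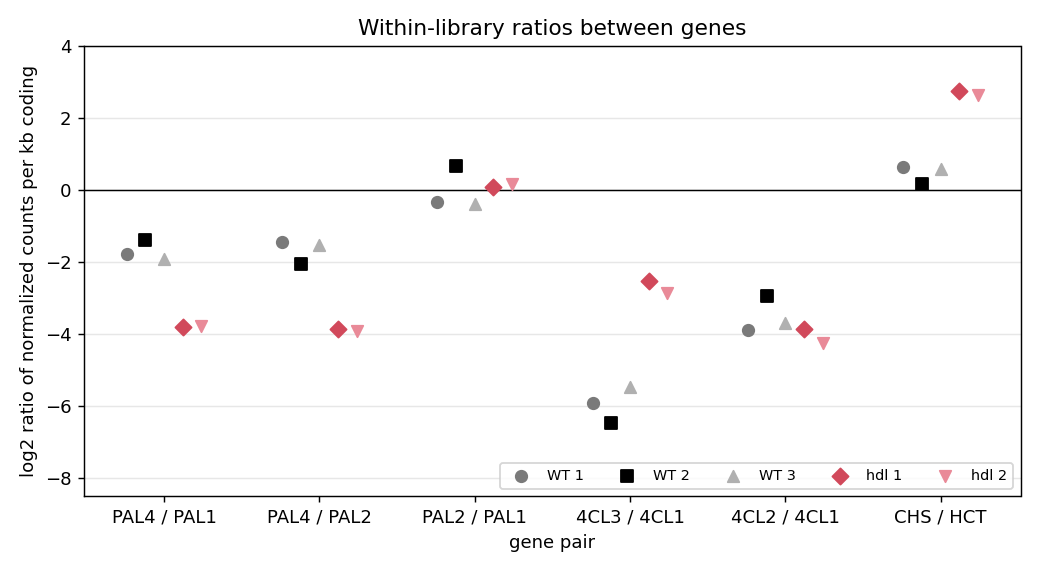
Log2 ratio of normalized counts per kb of coding length between gene pairs within each library. The PAL4 ratios are lower and the 4CL3 to 4CL1 and CHS to HCT ratios higher in both hdl libraries than in any WT library, while PAL2 to PAL1 and 4CL2 to 4CL1 overlap.

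The 4CL3 and 4CL1 upstream sequences are shown because the first of these paralogues rose and the second did not pass.
4CL3, chr1:24171636-24171885, minus strand: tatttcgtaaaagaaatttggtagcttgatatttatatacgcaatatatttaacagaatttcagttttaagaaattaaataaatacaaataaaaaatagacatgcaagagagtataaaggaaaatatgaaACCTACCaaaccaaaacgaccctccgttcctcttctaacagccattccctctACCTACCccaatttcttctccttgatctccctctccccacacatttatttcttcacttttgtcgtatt
4CL1, chr1:19161738-19161987, minus strand: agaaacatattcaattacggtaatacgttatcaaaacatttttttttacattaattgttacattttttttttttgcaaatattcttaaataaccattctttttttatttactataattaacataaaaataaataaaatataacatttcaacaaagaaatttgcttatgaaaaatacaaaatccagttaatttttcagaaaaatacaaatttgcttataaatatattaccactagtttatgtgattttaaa
The 4CL3 window holds 2 copies of ACCTACC, with first bases 120 and 68 bases before the gene start. At least 1 copy is in 1.17% of the 23523 windows, and at least 2 copies are in 12 of them. The 4CL1 window holds none of the searched letters. Of the other genes, 4CL2 holds 2 copies of ACCAACC and HCT and C3H1 hold 1 each, a motif in 2.75% of windows. In all, 4 of the 10 genes hold an AC element, against 6.19% of windows; these matches are a description of letters only.

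HCT and C3H1 lead from p-coumaroyl-CoA toward lignin and sinapate esters. HCT (AT5G48930, chromosome 5, 19836299 to 19838235, minus strand) had 3124, 1851 and 2978 normalized counts in WT and 4244 and 3953 in hdl. Both hdl libraries were higher than all WT libraries, with a log2 change of 0.67 ± 0.25 (SE, 95% interval 0.07 to 1.26; adjusted p = 0.126). Without WT replicate 2 the change was 0.43 and passed (adjusted p = 0.0115). C3H1 (AT2G40890, chromosome 2, 17058053 to 17060652, minus strand) had WT replicate 2 at 0.836 times the mean of the other WT libraries, the nearest of the 10 genes, with 2814, 2251 and 2569 normalized counts, and had 3120 and 3500 in hdl. The genotypes did not overlap, yet its log2 change of 0.38 (95% interval 0.02 to 0.75; adjusted p = 0.142) fell short of passing and was 0.06 at equal library totals, or 0.30 without WT replicate 2 (adjusted p = 0.0646). C3H1 shares 70 and 24 exonic bases with a pair of opposite-strand genes, the larger overlap being 3.71% of its exons.

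**Figure D4:**
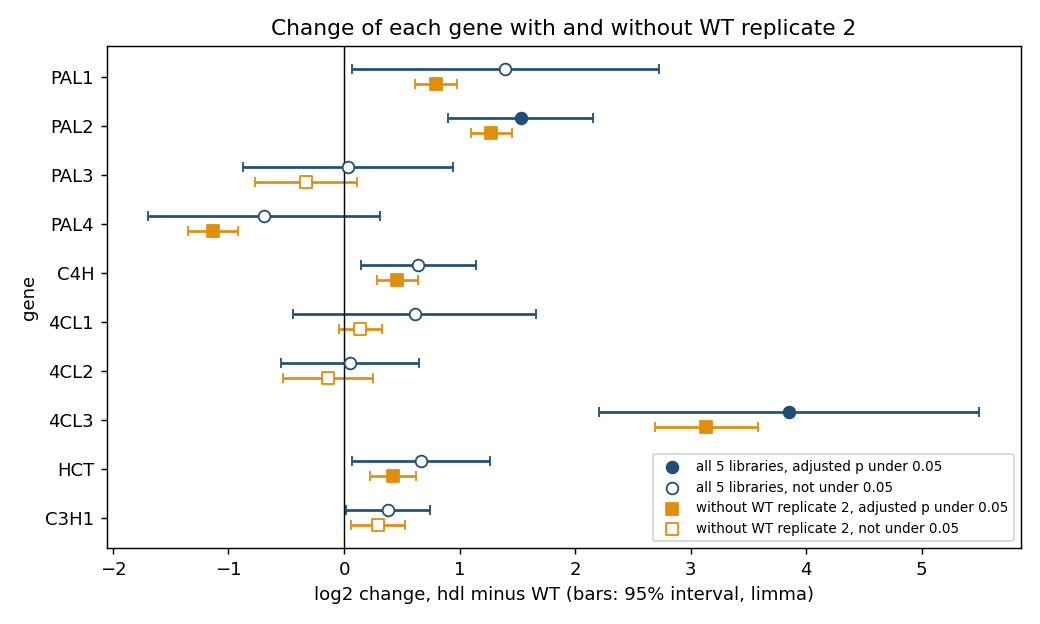
Log2 change of each gene, hdl minus WT, from limma, with 95% intervals, using all 5 libraries (circles) and without WT replicate 2 (squares); filled symbols have an adjusted p under 0.05. Leaving out WT replicate 2 narrows the intervals and moves PAL1, 4CL3 and PAL4 downward, to 0.80, 3.13 and -1.13.

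Levels per kb of coding length set the order of the genes. In WT the order was C4H at 5693 ± 1153 normalized counts per kb (SD, n = 3), 4CL1 at 3408 ± 1551, PAL1 at 3270 ± 1760, PAL2 at 2877 ± 788, HCT at 2036 ± 535 and C3H1 at 1666 ± 185. The ranges of each of these neighbours overlapped over the WT libraries. Within every WT library, however, C4H was above 4CL1 and PAL2 was above HCT. Below them came PAL4 at 953 ± 417, 4CL2 at 279 ± 60.6, PAL3 at 279 ± 107 and 4CL3 at 62.0 ± 39.1, where only 4CL2 and PAL3 overlapped. In hdl the order was C4H at 8757 ± 227 (SD, n = 2), PAL2 at 8059 ± 67.9, PAL1 at 7451 ± 247, 4CL1 at 4745 ± 127, HCT at 3148 ± 158 and C3H1 at 2168 ± 176. 4CL3 followed at 739 ± 101, then PAL4 at 542 ± 9.27, 4CL2 at 287 ± 46.8 and PAL3 at 272 ± 57.9. In the hdl order the neighbours that overlapped were 4CL2 and PAL3. 4CL3 thus stood last in WT and ahead of PAL4 in hdl.

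The profile of the single-copy gene C4H was close to that of HCT and, less so, to that of C3H1. The root mean square difference between centred log2 values over the 5 libraries was 0.069 between C4H and HCT and 0.182 between C4H and C3H1. HCT ranked 69 and C3H1 1057 among 16925 genes compared with C4H by this measure. 4CL2 ranked 3648, 4CL1 3943, PAL3 6014, PAL2 7219, PAL1 10585, PAL4 12639 and 4CL3 16472. The genes nearest to C4H were AT5G57330 at 0.024, GUN1 at 0.030, which encodes a plastid pentatricopeptide repeat protein, and AT4G39150 at 0.030. None of these passed the test, with log2 changes of 0.66, 0.60 and 0.65.

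Genes that supply phenylalanine included several that rose. Of 9 genes of the arogenate dehydratase (ADT) and chorismate mutase (CM) families, 3 rose and 0 fell by limma, with a median log2 change of 0.79, beside 8.21% higher and 4.5% lower among all tested genes (at an unadjusted p under 0.05, 4 and 0; by edgeR 3 and 0, by DESeq2 4 and 0). CM1, a chorismate mutase gene, had 626, 310 and 668 normalized counts in WT and 1902 and 1973 in hdl, a log2 change of 1.93 (adjusted p = 0.0208). ADT3 changed by 1.37 (adjusted p = 0.0167) and ADT4 by 1.31 (adjusted p = 0.0194); both encode enzymes that make phenylalanine from arogenate. The median of this list was 0.29 without WT replicate 2, with 4 higher and 0 lower, beside 17.8% and 11.4% of all genes tested. CM1, ADT3 and ADT4 were among the 4 called higher, at 1.58, 1.49 and 1.11.

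In the lignin monomer list, 4 of 9 genes rose and 0 fell by limma, with a median of 0.97, beside the same 8.21% and 4.5%. This list holds genes that act after C3H1 and also 4CL5, which belongs to the earlier 4CL step. At an unadjusted p under 0.05 limma gave 5 and 0, and edgeR and DESeq2 each called 4 and 0. FAH1, the ferulate 5-hydroxylase gene that leads to syringyl units and sinapate, had 1211, 624 and 1060 normalized counts in WT and 5751 and 4860 in hdl. The groups were far apart, with a log2 change of 2.51 (adjusted p = 0.00776). COMT1, a methyltransferase gene of the same segment, changed by 2.25 (adjusted p = 0.0109), the cinnamyl alcohol dehydrogenase gene CAD4 by 1.73 (adjusted p = 0.0377), and the cinnamoyl-CoA reductase gene CCR1, which has an opposite-strand neighbour overlapping it, by 1.37 (adjusted p = 0.0176). 4CL5, the remaining 4CL gene, was at -0.33 (adjusted p = 0.654) and overlaps an opposite-strand gene, and CAD5 was at -0.18 (adjusted p = 0.746); both were picked with their values in view. The median was 0.58 without WT replicate 2. These genes then fell, with 4CL5 at -0.81 and CAD5 at -0.53, and 6 rose, beside 11.4% lower and 17.8% higher among all genes tested. FAH1, COMT1 and CAD4 were at 2.22, 1.94 and 1.32 in that fit, and CCR1 was called as well (adjusted p = 0.000517). The CAD4 call was lost when libraries were scaled to equal totals (1.40, limma adjusted p = 0.0536).

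Among 5 tested lignin polymerization genes none was called by limma, beside 8.21% higher and 4.5% lower among all tested genes. The list median was -0.47. At an unadjusted p under 0.05 limma gave 0 and 0, and edgeR and DESeq2 called 0 and 0. Without WT replicate 2 the median was -1.10, and 4 fell, against 11.4% of all genes tested. The laccase gene LAC4 had 5162, 1515 and 4084 normalized counts in WT and 2532 and 2812 in hdl, and LAC17 had 3927, 999 and 3529 in WT and 1813 and 1660 in hdl. For both, hdl lay between WT replicate 2 and the other WT libraries. The summed xylem markers were instead lower in hdl, at 15293 and 15479, than in any WT library, WT replicate 2 being at 24296. By limma 2 of 6 xylem markers fell, XCP2 and CESA8, against 4.5% of all tested genes. Without WT replicate 2, 5 of 6 fell, against 11.4%. The part of xylem cells in these results was not tested. LAC17 overlaps an opposite-strand gene.

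The flavonoid branch showed the largest changes beside 4CL3. Of 6 genes 5 rose and 0 fell by limma, with a median of 3.19, beside 8.21% higher and 4.5% lower among all tested genes (at an unadjusted p under 0.05, 6 and 0; by edgeR 5 and 0, by DESeq2 6 and 0). CHS, which takes p-coumaroyl-CoA into this branch, had 4419, 1897 and 4105 normalized counts in WT and 26280 and 22341 in hdl, with no overlap. FLS1, the flavonol synthase gene, rose by 3.51 (adjusted p = 0.0151), CHI by 3.03, F3H by 3.62 and DFR by 3.36, while F3'H, at 2.29, did not pass (adjusted p = 0.0741) and was picked with its value in view; CHS and F3H overlap opposite-strand genes. All 6 rose without WT replicate 2, where 17.8% of all genes tested did, with a median of 2.95. The changes were then 2.51 for CHS, 2.95 for CHI, 3.28 for F3H, 2.94 for FLS1, 3.16 for DFR and 1.82 for F3'H. The CHS level per kb was 1.55, 1.12 and 1.51 times that of HCT in WT and 6.79 and 6.19 times in hdl, a log2 difference of 2.23 (exact permutation p = 0.2, adjusted p = 0.24). The epidermal marker sum was also higher in hdl, and 4 of 7 of those markers rose, against 8.21% of all tested genes; their part in the flavonoid and 4CL3 results was not tested.

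**Figure D5:**
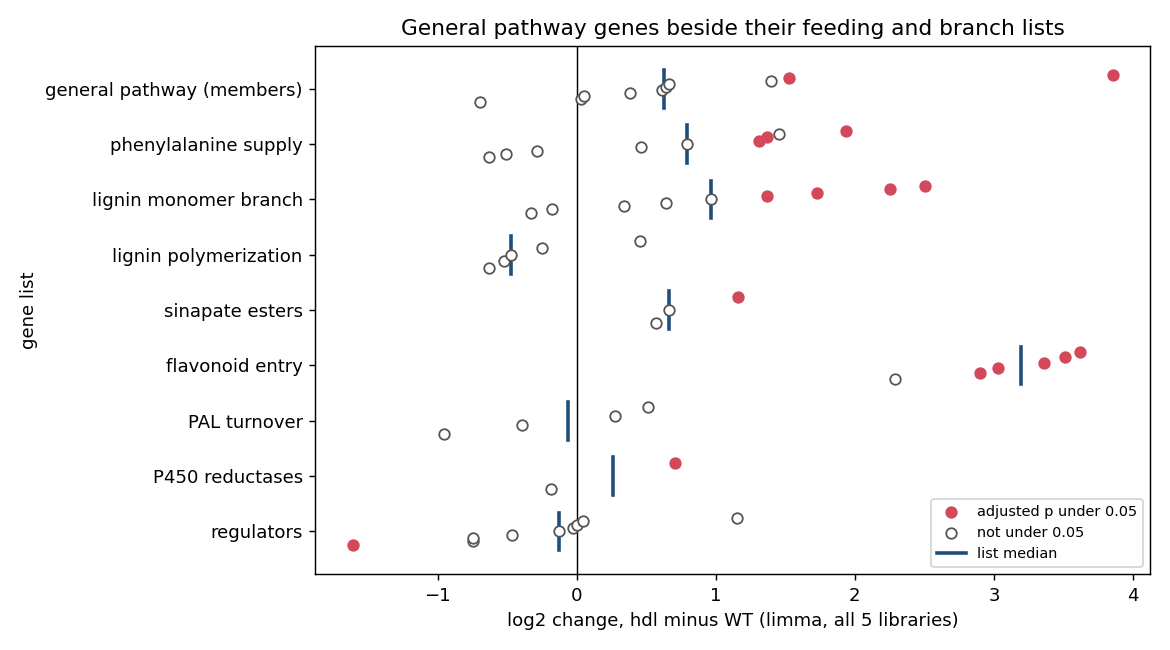
Log2 change, hdl minus WT, of every tested gene in the general pathway and in the lists that feed, leave or regulate it (limma, all 5 libraries); red points have an adjusted p under 0.05, and blue lines are list medians. The flavonoid list lies at 2.29 to 3.62 and 4CL3 at 3.85, while lignin polymerization genes lie between -0.63 and 0.45.

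Of 3 tested sinapate ester genes 1 rose and 0 fell by limma, against 8.21% and 4.5% of all tested genes (at an unadjusted p under 0.05, 1 and 0; by edgeR and by DESeq2 1 and 0). It was REF1, a hydroxycinnamaldehyde dehydrogenase gene with an overlapping opposite-strand neighbour, at 1418, 1961 and 1434 normalized counts in WT and 3827 and 3279 in hdl (adjusted p = 0.0172). Without WT replicate 2 the median of the list went from 0.66 to 1.05, and 2 of 3 rose, beside 17.8% of all genes tested. These were REF1, by 1.31, and SNG1, picked with its value in view, by 1.05 (limma adjusted p = 0.000507). None of 4 F-box genes of PAL protein turnover was called by limma, beside 8.21% higher and 4.5% lower among all tested genes. At an unadjusted p under 0.05 limma gave 0 higher and 1 lower, and edgeR and DESeq2 called 0 and 0. The median of these genes was -0.06, and 0.12 without WT replicate 2. KFB20 had 2668, 5909 and 2516 normalized counts in WT and 4415 and 3858 in hdl, and KFB50 had 1390, 3482 and 1323 in WT and 2654 and 2658 in hdl, so WT replicate 2 was the highest library for both. These rose without WT replicate 2, by 0.67 and 0.97, beside 17.8% of all genes tested in that fit. KFB20 was at -0.05 with libraries scaled to equal totals, and KFB50 overlaps an opposite-strand gene. Of 9 MYB and Mediator regulators 0 rose and 1 fell by limma, with a median of -0.13, against 8.21% and 4.5% of all tested genes (at an unadjusted p under 0.05, 0 and 1; by edgeR and by DESeq2 0 and 1). MYB85, a regulator of lignin genes, had 229, 243 and 275 normalized counts in WT and 93.1 and 70.4 in hdl, and fell by 1.61 on the log2 scale (adjusted p = 0.0162). Its value in WT replicate 2 did not stand apart, and without that library its log2 change was -1.62. The list then had a median of -0.65, with 1 higher and 2 lower, beside 17.8% and 11.4% of all genes tested.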

How the data were processed

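RNA was measured in 5 libraries, 3 WT and 2 hdl. The submitters' processing notes list build TAIR10 with Bowtie2 2.5.0, SAMtools 1.16.1, Trimmomatic 0.33, FastQC 0.11.9, DESeq2 and deepTools, without their roles. Whether counting used strand was not given in the sources used here. As the authors deposited it, the gene table holds a normalized signal, which its name ascribes to DESeq2. A further table of raw counts holds none of these genes and was not used.

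All values were whole multiples of a library's step within 0.01 (100% of values), so whole reads were recovered by division. limma 3.58.1 in R 4.3.3 was fitted to log2(value + 1) with an intensity trend and no covariate, keeping genes that reached 10 normalized counts in 2 or more libraries. limma called 1674 genes higher and 917 lower. edgeR 4.0.16 with TMM scaling, run on the recovered reads, called 1625 and 832, and DESeq2 1.42.0 called 2619 and 2152. Log2 changes understate those of low genes because of the pseudocount. Exact two-sided permutation p-values double the smaller one-sided p. The scripts were tested on simulated data.

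Deviations of same-numbered libraries from their group means had r of 0.005 and -0.012. The deviations of the 2 hdl libraries mirror each other, so these values cannot decide whether the numbers pair libraries. The numbers were not taken to pair them. Positions, coding lengths and sequences come from RefSeq TAIR10.1, in which 24108 of 24200 identifiers were found. The genes named are the 10 pathway genes, every called gene of 8 pathway lists, the 2 most abundant members of a list with no call, and the 3 genes nearest to C4H; 4CL5, CAD5, ATR1, F3'H and SNG1 were added with their values in view. The genes and lists were chosen with earlier results of these data known. Protein sequences were not used here.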

Additional observations from a re-analysis of the deposited data

How the results depend on the processing

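With 3 and 2 libraries, calls depended on single libraries and on the fit. Leaving out each library in turn gave 0 to 3574 genes higher and 0 to 2295 lower; 0 to 5 pathway genes higher and 0 to 1 lower; and 0 to 22 higher and 0 to 8 lower in the 8 lists. Over all genes, the 0 came without hdl replicate 1; with either hdl library left out, the lone one is assumed to vary like WT. For the 10 genes 0 higher also came without WT replicate 3 and without hdl replicate 2, and for the lists 0 lower came without any library but WT replicate 2. Without hdl replicate 1, 4006 of 20217 genes had an unadjusted p under 0.05 by limma, among them 2 of the 10 pathway genes, and edgeR and DESeq2 were not run without it.

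With the replicate block, limma called 0 genes higher and 0 lower, 0 pathway genes higher and, in the lists, 0 higher and 0 lower (4529 of 20391 genes, and 5 of the 10, at an unadjusted p under 0.05); its log2 changes for PAL2 and 4CL3 were 1.64 and 4.29. With no intensity trend it called 679 higher and 467 lower, 0 pathway genes higher and 7 list genes higher. DESeq2 called 2619 higher and 2152 lower. Scaling libraries to equal totals gave 994 higher and 2553 lower calls over all genes, and 3 lower in the lists.

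Of the 13 alternatives, PAL2 kept its call in 8 (adjusted p 3.39e-06 to 0.118) and 4CL3 in 7 (5.74e-08 to 0.118), and both kept their direction in all 13. PAL1, PAL4 and HCT were called in 1 of the 13, the fit without WT replicate 2, and C4H in 2. PAL4 was at -0.44 without WT replicate 1 and at -0.51 without WT replicate 3, and passed in neither. PAL3 turned to -0.045 with edgeR, -0.037 with DESeq2 and -0.29 with equal totals, and ranged from -0.33 to 0.27 over the libraries left out. 4CL2 turned to -0.27 with equal totals and ranged from -0.14 to 0.22. The PAL1 share difference of 3.65 percentage points ranged from -1.24 to 6.50 and was negative without WT replicate 2; the other shares kept their direction under every library left out and without length. The cause was not tested. The low depth of 4CL3 in WT, 24 reads in replicate 2, limits its change.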
